A study of Mus musculus with 18 samples.

Results

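The genes described here encode the pore-forming subunits of the fast glutamate, GABA and glycine receptors of the retina. They were chosen as the listed AMPA, kainate, NMDA, GABA-A and glycine receptor symbols, matched to array probes through each probe's RefSeq accession. All 32 listed genes were found, on 44 of the 39429 probes. By class they were 4 AMPA receptor genes, 5 kainate receptor genes, 7 NMDA receptor genes, 12 GABA-A receptor genes and 4 glycine receptor genes.

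The samples were whole retinas of adult mice with both copies of Map3k12 floxed. Map3k12 encodes DLK, a kinase that signals axon injury. All mice had been given tamoxifen at 10 to 12 weeks of age, and they either lacked a Cre-ERT transgene (DLKlox:Creneg, called Cre-negative here) or carried 1 driven by the CAG promoter (DLKlox:Crepos, Cre-positive). The optic nerve was crushed or left uncrushed, the series' design names the uninjured eye as the control, and the sample source is given as retina 3 days after crush. Without Cre there were 4 uncrushed and 3 crushed samples, and with Cre 5 of each, every one on 1 array. CAG drives Cre in many tissues, so deletion was not limited to neurons, and per the labels a small and variable amount of DLK protein remained. The labels do not tie samples to animals, so uncrushed and crushed retinas of a genotype could come from the same mice, and p-values measure the spread between these samples. An eighteenth array, Cre-negative with disagreeing crush labels, entered no comparison.

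Ionotropic receptors are ion channels opened by the transmitter itself. AMPA, kainate and NMDA receptors are glutamate-gated cation channels that excite the cell, while GABA-A and glycine receptors are chloride channels that in most adult neurons inhibit it. In the retina, photoreceptors and bipolar cells release glutamate, horizontal and amacrine cells release GABA or glycine, and ganglion cells, whose axons form the optic nerve, carry receptors of every one of these classes. Most of the genes are also used by bipolar, amacrine or horizontal cells, which the crush does not sever.

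Every value is a log2 ratio of retina RNA (Cy5) over a common mouse reference RNA (Cy3), so a difference of 1 is a doubling. Cy5 was well above background on 68.0 to 75.5% of probes per array. Transcript of the floxed gene was present in every sample and lay lower with Cre. The arrays of the 2 genotypes overlapped in crushed retinas. In uncrushed retinas they did not, as for 1.96% of all features tested. The Map3k12 log2 ratio ran from 2.21 to 2.61 over the 7 Cre-negative arrays and from 1.77 to 2.34 over the 10 Cre-positive arrays, with differences of −0.43 in uncrushed retinas (SE 0.11, adjusted p = 0.88) and −0.47 in crushed retinas (SE 0.12, adjusted p = 0.061, limma with Benjamini-Hochberg adjustment). Whether its probe lies in the deleted part is not given in the sources used here. Ganglion cell markers were lowest in Cre-negative crushed retinas. Over 15 tested markers the median log2 change after crush was −0.62 in Cre-negative retinas, with 10 called lower (adjusted p under 0.05). It was −0.27 in Cre-positive retinas, with 3 called lower. Of all features 0.816% and 0.0868% were called lower. Of 9 microglia markers, 4 were called higher after crush without Cre and 8 with Cre, where 343 and 173 of all 25359 features were. No microglia marker was called for the difference between both responses. The groups also differ in size, so these counts do not compare the genotypes. Genes of neighbouring eye tissue stood high on single arrays: the cornea, iris and ciliary body list was 3.06 above the Cre-negative uncrushed mean on Cre-positive uncrushed replicate 4, and the lens list was 1.02 above it on Cre-positive crushed replicate 5.

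Of the 32 genes, 28 were tested, because Cy5 was well above background for them on at least 3 of the 17 arrays. The 4 left out were Grin3a, the NMDA receptor subunit GluN3A, above background on 2 arrays, Gabra5 on 1 array, and Gabra6 and Glra3 on none. For these 4 the level in retina was not measurable at this signal. Among the tested genes, 25 were above background on all 17 arrays, and Grik2, Grin2a and Grin2d on 15, 12 and 8 of them.

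**Figure D1:**
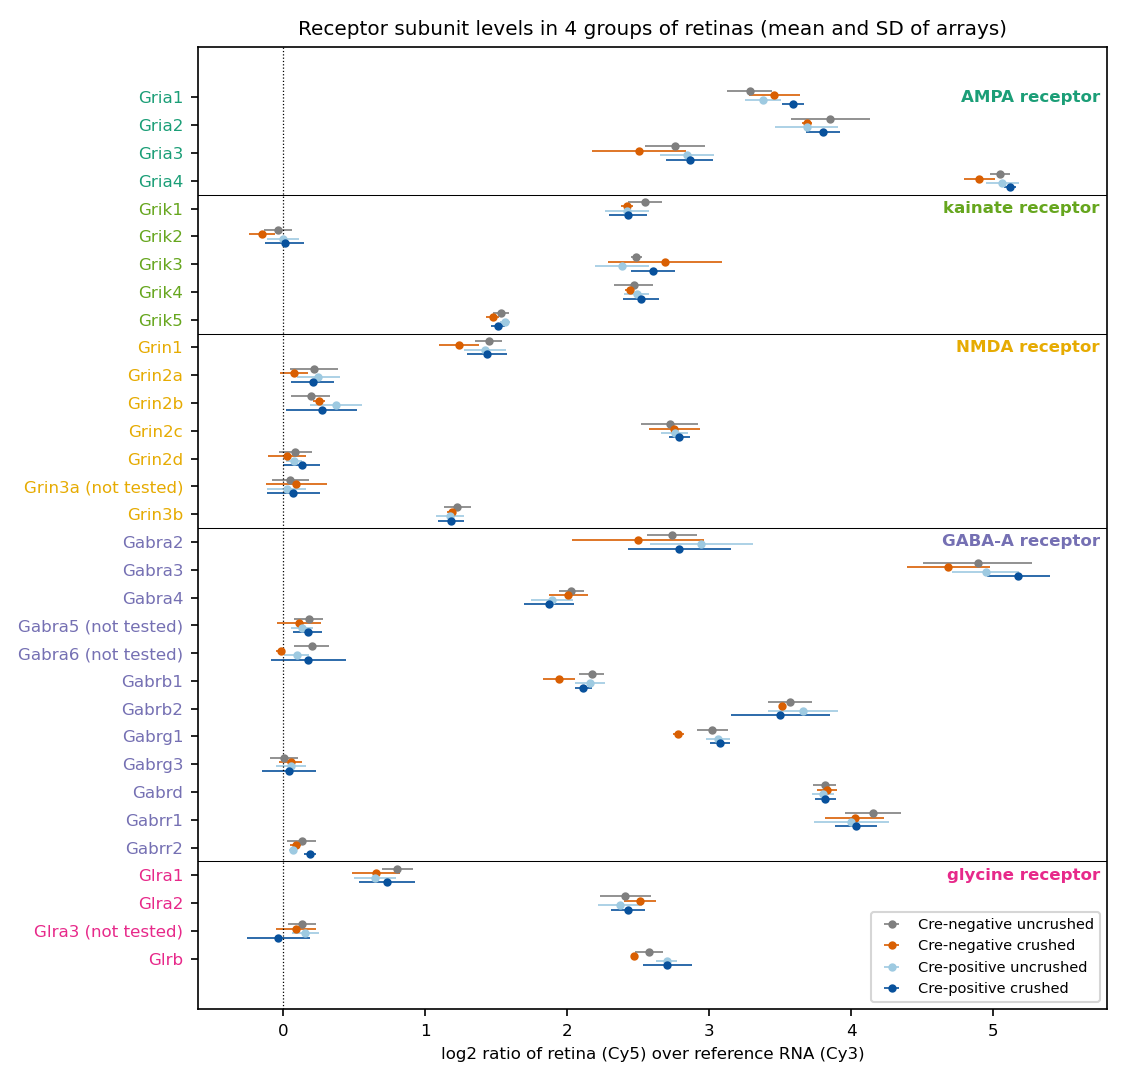
Log2 ratio of retina over reference RNA (horizontal axis) for each of the 32 receptor genes, as the mean of the arrays in each of 4 groups with their SD as bars. The 4 groups of a gene lie close together beside the spread between arrays, the Cre-negative crushed mean of Gabrg1 at 2.78 standing below its other group means of 3.02 to 3.08, and rows are not to be compared with each other because each probe has its own brightness and its own reference level.

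The ratio to the reference is a number of times only where the reference dye was also measurable. Both dyes were above background on all 17 arrays for 10 genes. These folds are of corrected intensities with 50 added to both dyes, which draws them toward 1 where the reference is dim. For Gria4 the uncorrected reference spot intensity was 59.5 to 85, so its fold depends on that offset. On this scale the mean retina level was 33.0 times the reference for Gria4 (the AMPA subunit GluA4), 16.6 times for Gabrr1 (the rho1 subunit, known from rod bipolar cells), 14.1 times for Gabrd (the delta subunit of extrasynaptic receptors), 11.8 times for Gabrb2, 6.20 times for Glrb (the glycine receptor beta subunit, which anchors the receptor to gephyrin), 2.88 times for Grik5 and 2.28 times for Grin3b. It was close to the reference for Grin2b at 1.21, Gabrr2 at 1.09 and Gabrg3 at 1.03 times. For 8 genes the reference was above background on no array (Gria2, Grik1, Grik3, Gabra2, Gabra4, Gabrb1, Gabrg1 and Glra2), so their ratios show change between groups and no fold over the reference.

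The spread between arrays of the same group differed by gene and also within the GABA-A class. The within-group SD, pooled over the 4 groups, was highest for Gabra2 at 0.35, Gabra3 at 0.28 and Gabrb2 at 0.25. It was lowest for Grik5 at 0.05 and Gabrr2 at 0.06, and it was also low for Gabrd and Gabrg1, both at 0.08. The precision of a comparison therefore differed by gene: standard errors of the crush change in Cre-negative retinas ran from 0.05 to 0.23.

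The first question was how receptor transcripts change when ganglion cell axons are crushed with DLK intact. None of the 28 genes passed the test in Cre-negative retinas, where 2.17% of the 25359 features tested did (limma, adjusted p under 0.05). At an unadjusted p under 0.05 there were 3 receptor genes, Gabrg1, Gabrb1 and Grin1, with 13.4% of all features under that p. Of the 28 estimates 21 were below 0, against 49.4% of all features, and their median was −0.08 (all features 0.00). Without Cre-negative uncrushed replicate 1 the median was −0.03, with 20 estimates below 0. Over 30 alternative fits the count below 0 ran from 18 to 23. It was 18 with the scanner software's processed signals and with slide as a fixed term. In the reported fit the estimates ran from −0.25 for Gria3 to 0.20 for Grik3. For 24 genes the 95% interval lay within 0.5 on either side of 0, as it did for 92% of all features. The intervals of Gria3, Gabra2 and Gabra3 reached below −0.5 and that of Grik3 just above 0.5, so for these 4 genes a change of 0.5 lay within the error.

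Among the AMPA receptor genes the median change was −0.16. Gria4 was 5.08, 5.01, 4.97 and 5.13 in the Cre-negative uncrushed arrays and 4.79, 5.01 and 4.90 in the crushed arrays, a change of −0.15 (SE 0.07, adjusted p = 0.37). The groups overlapped through the single crushed array at 5.01, and with the scanner software's processed signals the change turned to 0.19. Gria1, the GluA1 subunit, was the AMPA member with an estimate above 0, at 0.17 (SE 0.10, adjusted p = 0.46). Gria2, whose edited GluA2 subunit makes the channel impermeable to calcium, changed by −0.16 (SE 0.13, adjusted p = 0.67).

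The 5 kainate receptor genes had a median change of −0.06. Grik1, the GluK1 subunit used by OFF bipolar cells, changed by −0.13 (SE 0.09, adjusted p = 0.62). Grik3 was uneven among the 3 crushed arrays, at 3.098, 2.67 and 2.29 beside 2.45 to 2.54 in the uncrushed ones. Grik5, the most evenly measured gene, had an interval of −0.17 to 0.05.

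The 6 tested NMDA receptor genes had a median of −0.05. Grin1, the obligatory GluN1 subunit, was 1.34, 1.55, 1.38 and 1.51 in uncrushed and 1.27, 1.09 and 1.36 in crushed Cre-negative retinas, a change of −0.21 (SE 0.10, adjusted p = 0.37). The groups overlapped, with 1 crushed array at 1.36 above the lowest uncrushed one. The other 5, Grin2a to Grin2d and Grin3b, had estimates of −0.14 to 0.06 and adjusted p-values of 0.63 or more.

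GABA-A receptor genes, 10 tested, had a median of −0.09, and the 3 glycine receptor genes −0.10. Gabrb1, the beta1 subunit, was 2.19, 2.14, 2.07 and 2.29 in uncrushed and 2.01, 2.005 and 1.81 in crushed Cre-negative retinas. All 3 crushed arrays were lower than every uncrushed array, as for Gabrg1 below, which 15.4% of all features also showed in either direction. The Gabrb1 change was −0.23 (SE 0.07, adjusted p = 0.13). Gabrd and Gabrr2, which form extrasynaptic and rho receptors, had changes of 0.02 and −0.04 with intervals inside −0.16 to 0.16. Glra1, Glra2 and Glrb had estimates of −0.15, 0.10 and −0.10.

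Gabrd shows what an even gene looked like. It was 3.78, 3.83, 3.73 and 3.92 in Cre-negative uncrushed, 3.79, 3.79 and 3.91 in Cre-negative crushed, 3.71, 3.74, 3.83, 3.90 and 3.83 in Cre-positive uncrushed, and 3.84, 3.85, 3.78, 3.91 and 3.71 in Cre-positive crushed retinas. All 4 groups covered the same range, and its estimates in the 5 comparisons lay between −0.02 and 0.02. Gria2, measured with more spread, was 3.94, 4.19, 3.55 and 3.72 in uncrushed and 3.65, 3.71 and 3.71 in crushed retinas without Cre, the crushed arrays lying inside the uncrushed range.

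**Figure D2:**
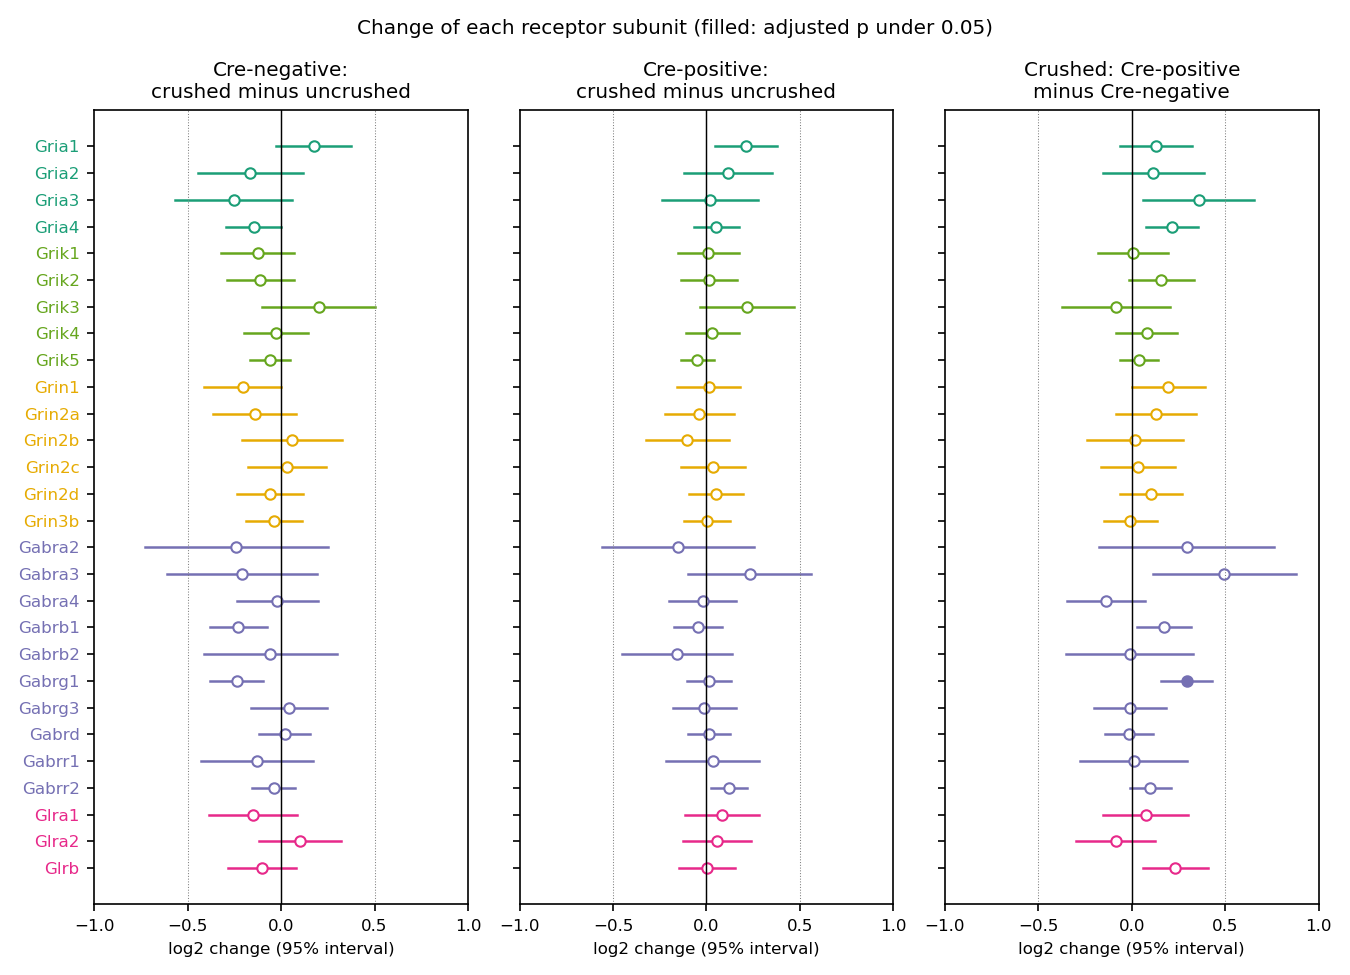
Log2 change of each of the 28 tested receptor genes (circles) with its 95% interval, for the crush response in Cre-negative retinas (left), the crush response in Cre-positive retinas (middle) and Cre-positive minus Cre-negative crushed retinas (right), coloured by receptor class. Dotted lines mark −0.5 and 0.5; estimates fall below 0 for 21 genes on the left, 8 in the middle and 7 on the right, and the filled circle of Gabrg1 on the right is the single one with an adjusted p under 0.05.

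In Cre-positive retinas the same injury gave no called receptor gene either, where 0.769% of all features were called. At an unadjusted p under 0.05 there were 2 genes, Gria1 and Gabrr2, against 9.55% of all features. The median change was 0.01, with 20 estimates above 0 and 8 below (49.9% of all features were below 0). This balance depended on the signal used: with the scanner software's processed signals 19 of the 28 were below 0, with a median of −0.04, where 57.2% of all features were below 0. In the reported fit 26 of the 28 intervals lay within 0.5 of 0 (96.2% of all features). Gria1 was 3.56, 3.37, 3.43, 3.25 and 3.27 in uncrushed and 3.47, 3.56, 3.67, 3.59 and 3.65 in crushed Cre-positive retinas, a change of 0.21 (SE 0.08, adjusted p = 0.38). Its estimate without Cre was 0.17, and the groups overlapped in both genotypes.

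Gabrr2, the rho2 subunit, had the single pair of non-overlapping groups in Cre-positive retinas, a pattern seen in 2.09% of all features. It was 0.05, 0.09, 0.05, 0.05 and 0.10 in uncrushed and 0.20, 0.25, 0.14, 0.20 and 0.16 in crushed retinas, a change of 0.12 (SE 0.05, adjusted p = 0.38). The whole difference is small: the upper end of its interval is 0.22. The class medians were 0.08 for AMPA, 0.01 for kainate, 0.01 for NMDA, 0.00 for GABA-A and 0.05 for glycine receptor genes.

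Whether the crush response depended on Cre was tested as the difference between both responses. No receptor gene was called, against 0.418% of all features. At an unadjusted p under 0.05 there were 3 genes, Gabrg1, Gabrr2 and Gria4 (8.4% of all features), and 22 of the 28 estimates were above 0 with a median of 0.10, while 49.2% of all features were below 0. The class medians were 0.24 for AMPA, 0.06 for kainate, 0.07 for NMDA, 0.12 for GABA-A and 0.11 for glycine receptor genes. The difference was the least precise of the comparisons: 20 of 28 intervals stayed within 0.5 of 0, against 85% of all features, and the Gabra3 estimate of 0.44 had an interval of −0.08 to 0.96.

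Without crush, Cre-positive and Cre-negative retinas gave no called receptor gene, where 0.0118% of all features were called, and none had an unadjusted p under 0.05 (5.59% of all features). The median difference was 0.02, with 13 of 28 estimates below 0 (46.4% of all features). The estimates ran from −0.17 for Gria2 to 0.21 for Gabra2, and 27 of 28 intervals lay within 0.5 of 0 (96.6% of all features), the exception being Gabra2. No member's groups were separate (1.96% of all features).

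Among crushed retinas, 1 receptor gene was higher with Cre, Gabrg1, where 1.16% of all features were called and 0.607% were called higher. There were 6 genes at an unadjusted p under 0.05 (Gria3, Gria4, Gabra3, Gabrb1, Gabrg1 and Glrb, against 13.9% of all features), all with estimates above 0. Of the receptor genes 21 of 28 estimates were above 0 with a median of 0.09, and the share of all features below 0 was 46.8%. This comparison shares the 3 Cre-negative crushed arrays with the crush response in Cre-negative retinas, so genes low on those arrays enter both.

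Gabrg1 encodes the gamma1 subunit of the GABA-A receptor. Its log2 ratio was 3.098, 3.08, 2.86 and 3.05 in Cre-negative uncrushed retinas and 2.78, 2.75 and 2.82 after crush. In Cre-positive retinas it was 3.06, 2.96, 3.20, 3.03 and 3.07 uncrushed and 3.04, 2.99, 3.06, 3.16 and 3.14 after crush. The 3 Cre-negative crushed arrays were thus the lowest of the 17, and the other 3 groups overlapped one another.

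The Cre-positive crushed mean of Gabrg1 exceeded the Cre-negative crushed mean by 0.29 (SE 0.06, 95% interval 0.16 to 0.43, adjusted p = 0.028), which is 1.23-fold. The crush change in Cre-negative retinas was −0.24 (SE 0.07, adjusted p = 0.084), and in Cre-positive retinas it was 0.01 (SE 0.06, adjusted p = 0.96). The difference between both crush responses, 0.25 (SE 0.09, adjusted p = 0.39), did not pass the test. Among crushed retinas the unnormalized Cy5 spot intensities of Gabrg1 showed the same order, 621 to 706 without Cre and 715 to 955 with it. The reference dye was at background. Array brightness enters this order: the median Cy5 of all probes was 233 to 261 on the former arrays and 227.5 to 277.5 on the latter. The mean Cy5 of Gabrd, whose ratio differed by −0.01, was likewise 3062 without Cre and 3411 with it. The spot intensities are therefore no separate check of the Gabrg1 ratio.

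The call for Gabrg1 rested on few arrays. It did not pass without any 1 of the 3 Cre-negative crushed arrays (adjusted p of 0.10, 0.15 and 0.073 without replicates 1, 2 and 3), nor without Cre-positive crushed replicate 4 or 5 (0.070 and 0.068), and replicate 5 is the array with the raised lens genes. With slide as a fixed term the value was 0.22 (adjusted p = 0.25); on the 2 slides that held both crushed genotypes it was 0.32 and 0.25. The call was also lost with the authors' value table (adjusted p = 0.070), with the scanner software's processed signals (0.27), with the compared groups fitted alone (0.061) and with the array of disagreeing labels as uncrushed (0.12), the estimate being 0.27 to 0.39 in these 4 fits. With that array as crushed the call was kept, at 0.32 (limma, adjusted p = 0.0059). The ganglion cell markers also differed between the crushed genotypes. Relative to Cre-negative uncrushed retinas their median was −0.65 to −0.60 on the 3 crushed arrays without Cre. It was −0.15 to −0.02 on the 5 with Cre. Pou4f2, a transcription factor of ganglion cells, was 2.62 to 2.72 on the crushed arrays without Cre and 4.19 to 4.49 on those with Cre. In the crush response with Cre the markers had a median change of −0.27, while Gabrg1 changed by 0.01 (SE 0.06). Markers of other cells also differed between crushed genotypes. Of 9 microglia markers none was called, but 6 had an unadjusted p under 0.05 and their median was 0.34. Called higher with Cre were 1 of 4 horizontal cell markers (Calb1, 0.31) and 1 of 5 cornea, iris and ciliary body markers (Myh11, 0.34, with −0.02 to 0.38 over the alternatives), both named after their values were seen. In RNA of the whole retina, fewer cells of a type and less RNA per cell cannot be told apart, and the part of any of these cells' RNA in the Gabrg1 value was not tested.

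Gabrg1 lies in a cluster of GABA-A receptor genes on chromosome 5 with Gabra2, Gabra4 and Gabrb1, so the 4 promoter windows are shown to set the called gene beside its neighbours. Each is the 250 bases before the annotated start in RefSeq's GRCm38.p6 table, written 5′ to 3′ on the gene's strand: Gabrg1 at chr5:70842618-70842867 on the minus strand, Gabra2 at chr5:71095850-71096099 (minus), Gabrb1 at chr5:71657671-71657920 (plus, the upstream of its 2 windows) and Gabra4 at chr5:71658309-71658558 (minus). Capitals mark matches on either strand to the GC box GGGCGG and the CCAAT box, the motifs found in these 4 among the 5 searched.
Gabrg1: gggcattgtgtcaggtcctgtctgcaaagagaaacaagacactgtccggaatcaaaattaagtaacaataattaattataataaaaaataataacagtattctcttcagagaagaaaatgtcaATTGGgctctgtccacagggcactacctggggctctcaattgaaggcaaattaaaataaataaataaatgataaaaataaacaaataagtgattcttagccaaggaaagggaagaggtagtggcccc
Gabra2: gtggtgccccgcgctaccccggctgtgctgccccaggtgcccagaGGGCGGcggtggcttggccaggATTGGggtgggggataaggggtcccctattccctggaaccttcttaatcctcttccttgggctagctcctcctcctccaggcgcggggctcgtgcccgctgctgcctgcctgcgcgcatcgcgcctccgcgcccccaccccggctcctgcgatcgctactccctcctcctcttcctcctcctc
Gabrb1: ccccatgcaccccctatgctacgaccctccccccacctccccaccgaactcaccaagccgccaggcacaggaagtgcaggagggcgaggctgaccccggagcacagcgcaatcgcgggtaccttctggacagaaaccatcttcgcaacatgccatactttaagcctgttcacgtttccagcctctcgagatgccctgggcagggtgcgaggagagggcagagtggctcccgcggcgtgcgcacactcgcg
Gabra4: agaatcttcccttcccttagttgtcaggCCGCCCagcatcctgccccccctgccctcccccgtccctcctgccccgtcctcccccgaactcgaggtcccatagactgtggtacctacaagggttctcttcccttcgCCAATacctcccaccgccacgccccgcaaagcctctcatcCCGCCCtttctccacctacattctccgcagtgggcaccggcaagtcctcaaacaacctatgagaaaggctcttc

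Among these 4 windows that of Gabrg1 was lowest in G and C, at 35.6% with 1 CpG. Those of Gabra2, Gabrb1 and Gabra4 had 70%, 64.4% and 61.2%, and the median over the table's 32851 windows was 52.4%. The other Gabrb1 window had 50.8%. Low values were not particular to Gabrg1: 1 window of Gabrb2 had 36.8% and 1 of Gabra3 had 39.2% with 0 CpG, and neither gene was called. Of the 32 receptor genes, 24 had a window in the table, with 28 windows between them. The pattern TGANTCA, searched for AP-1 (Jun and Fos) with any base as N, was present in 1 of their windows and in 6.75% of all windows. In that window, of Grin3b, it read TGATTCA. The share of all windows likewise counts every base at N. The cyclic AMP response element TGACGTCA was present in none of theirs and in 1.55% of all windows. GC boxes were present in 12 of the 28 windows (32.7% of all windows), CCAAT in 11 (33.8%) and TATAAA in 5 (12.4%). These are matches of letters in 250 bases and say nothing about factor binding.

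The neighbours of Gabrg1 on chromosome 5 differed in pattern among crushed retinas. Gabrb1 was 2.01, 2.005 and 1.81 without Cre and 2.13, 2.12, 2.05, 2.20 and 2.07 with Cre, and the groups did not overlap (0.17, SE 0.07, adjusted p = 0.27). Gabra2 was 2.57, 2.001 and 2.92 without Cre and 3.03, 2.65, 2.30, 3.24 and 2.73 with Cre, wide and overlapping (0.29, SE 0.22, adjusted p = 0.60). Gabra4 was 2.17, 1.96 and 1.90 without Cre and 1.88, 1.92, 1.93, 2.06 and 1.58 with Cre, so its estimate had the opposite sign (−0.14, SE 0.10, adjusted p = 0.58).

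**Figure D3:**
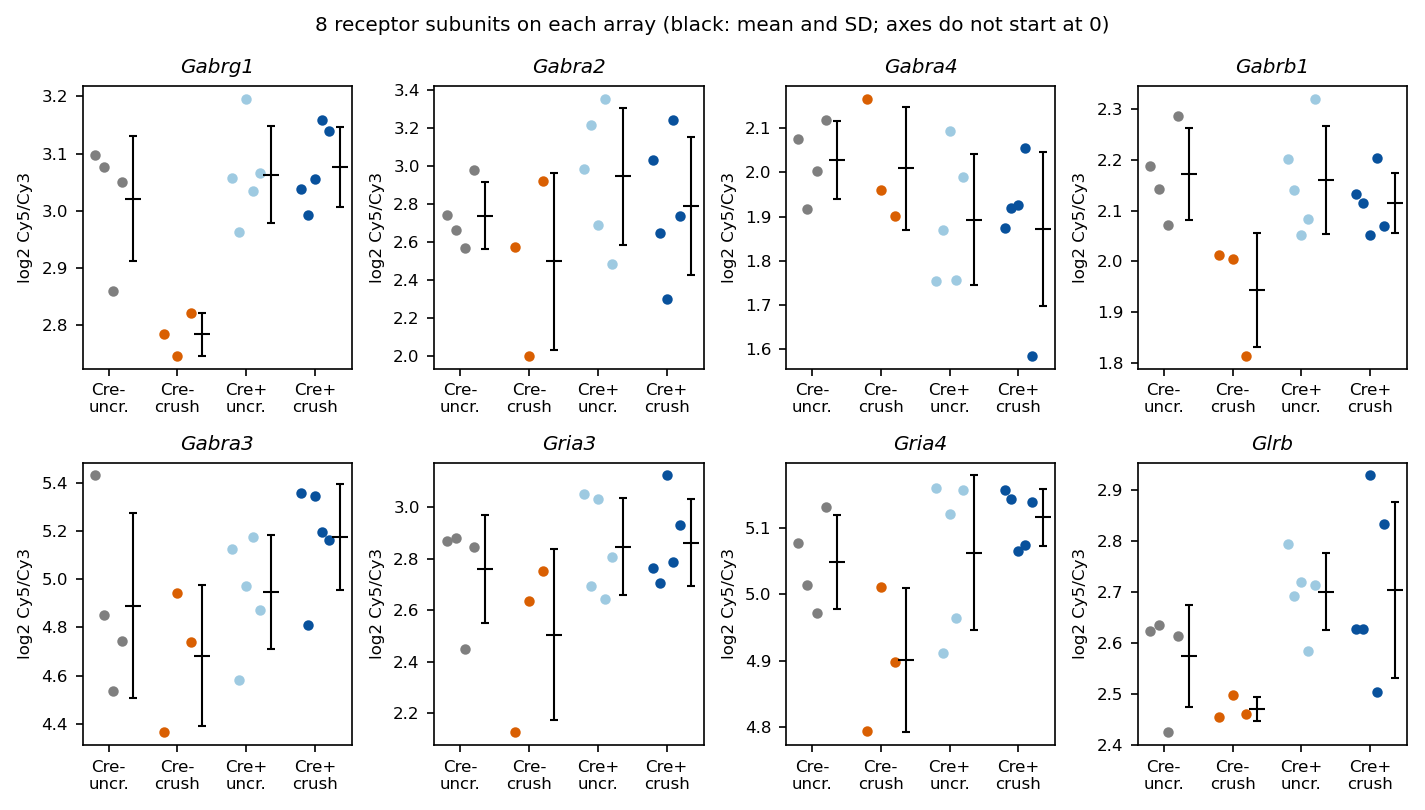
Log2 ratio of retina over reference RNA on each array (points) for the 4 GABA-A receptor genes of the chromosome 5 cluster (top) and for Gabra3, Gria3, Gria4 and Glrb (bottom), with the mean and SD of each group in black. The vertical axes differ and do not start at 0; the Cre-negative crushed arrays of Gabrg1 lie at 2.75 to 2.82, below all others, the nearest of which is at 2.86, while those of Gabra2 span 2.001 to 2.92.

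The other genes with low p-values among crushed retinas did not pass the adjusted test. Groups were separate for 5 members, Gria4, Gabrb1, Gabrg1, Gabrr2 and Glrb, and for 10.3% of all features. Gria4 was 4.79, 5.01 and 4.90 without Cre and 5.16, 5.14, 5.06, 5.07 and 5.14 with Cre (0.21, SE 0.07, adjusted p = 0.14), and the sign turned to −0.11 with the scanner software's processed signals. Glrb was 2.45, 2.50 and 2.46 without Cre and 2.63, 2.63, 2.93, 2.50 and 2.83 with Cre, the lowest of which lay just above the highest array without Cre (0.23, SE 0.08, adjusted p = 0.20).

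Gabra3, the alpha3 subunit, had the estimate furthest from 0 of the 28, 0.49 (SE 0.18, adjusted p = 0.22). It was 4.36, 4.94 and 4.74 without Cre and 5.36, 4.81, 5.35, 5.20 and 5.16 with Cre, so the groups overlapped by 1 array on each side. Gria3, the GluA3 subunit, was 2.13, 2.63 and 2.75 without Cre and 2.77, 2.71, 3.12, 2.79 and 2.93 with Cre (0.36, SE 0.14, adjusted p = 0.26). The array at 2.13, replicate 1, also had the lowest Gabra3 value. The class medians were 0.17 for AMPA, 0.04 for kainate, 0.07 for NMDA, 0.05 for GABA-A and 0.08 for glycine receptor genes, and 25 of 28 intervals lay within 0.5 of 0 (93.4% of all features).

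Second probes could be read for some genes. Of 12 genes with 2 probes, 10 had both tested, and with every probe tested on its own 1 of 38 was called, the brighter Gabrg1 probe among crushed retinas. The dimmer Gabrg1 probe was above background on only 3 of the 17 arrays, so its values of −0.25 (SE 0.08, adjusted p = 0.15) for the crush response without Cre and 0.18 (SE 0.08, adjusted p = 0.30) for Cre among crushed retinas are no independent check of the call. The second Gria3 probe, above background on all 17 arrays, gave 0.01 (SE 0.06) among crushed retinas, beside 0.36 for the first. For the crush response without Cre it gave 0.04 (SE 0.06), beside −0.25. The second Gria4 probe, also above background on all 17 arrays, gave 0.04 (SE 0.18) among crushed retinas, beside 0.21. For the crush response without Cre it gave −0.20 (SE 0.19), beside −0.15. In that response the second Grin2b probe (17 arrays) gave −0.15 (SE 0.07), beside 0.06. The second Grin1 probe, above background on 9 of the 17 arrays, gave 0.06 (SE 0.13) there, beside −0.21. The second Gabra3 probe was above background on 7 of the 17 arrays, too dim to check the first. It gave 0.06 (SE 0.08) among crushed retinas, beside 0.49. The second Grik2 probe was above background on 14 arrays. For the difference of the responses it gave 0.42 (SE 0.15, adjusted p = 0.45), beside 0.12. Dim probes included, the signs of both probes agreed for 7, 6, 7, 5 and 9 of the 10 genes in the crush response without Cre, the crush response with Cre, their difference, the Cre effect without crush and the Cre effect after crush.

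Set against the individual arrays, the receptor classes stayed near the Cre-negative uncrushed level. Without Cre, the median deviation of all 28 genes per array ran from −0.10 to 0.05 before crush and from −0.09 to −0.05 after it. With Cre these ranges were −0.04 to 0.06 and −0.02 to 0.03. For the AMPA class 3 of the 4 uncrushed Cre-negative arrays lay at 0.06 to 0.08, above the 3 crushed arrays at −0.23 to −0.07, while uncrushed replicate 3 lay below all of them at −0.26. For GABA-A receptor genes the Cre-negative crushed arrays lay between −0.11 and −0.07, and the uncrushed ones between −0.10 and 0.07.

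**Figure D4:**
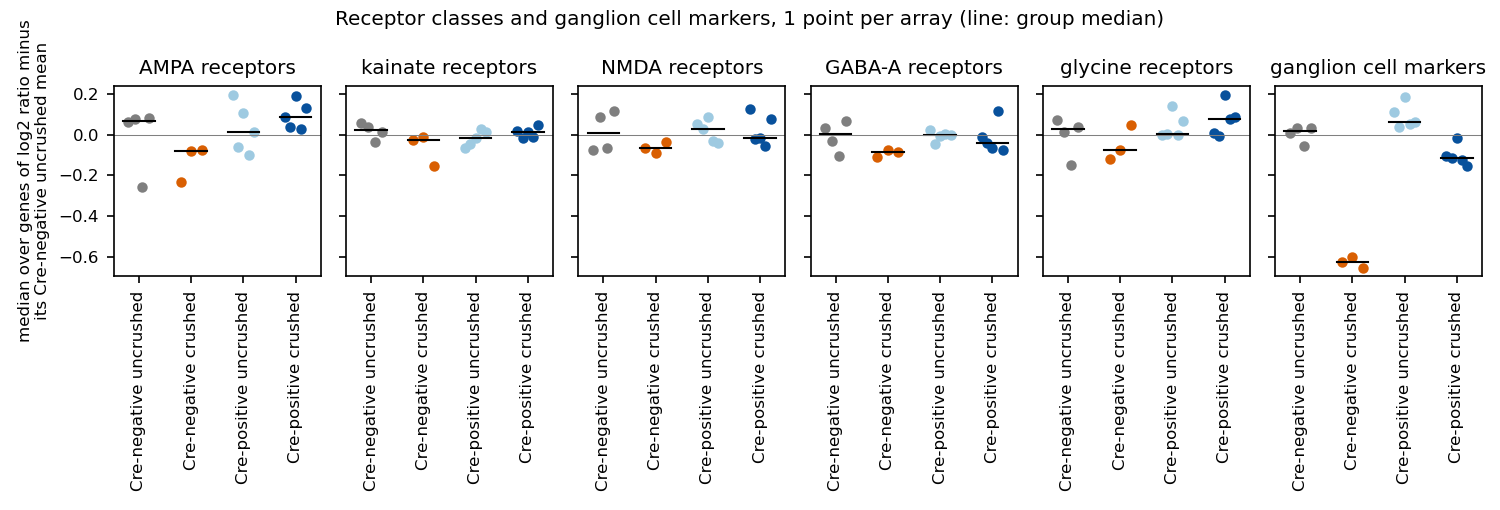
Median over the genes of each receptor class, and over the ganglion cell markers, of the log2 ratio minus its mean in Cre-negative uncrushed retinas, with 1 point per array and a line at the group median. The receptor classes stay between −0.26 and 0.20 on every array, while the ganglion cell markers of the 3 Cre-negative crushed arrays lie at −0.65 to −0.60.

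**Figure D5:**
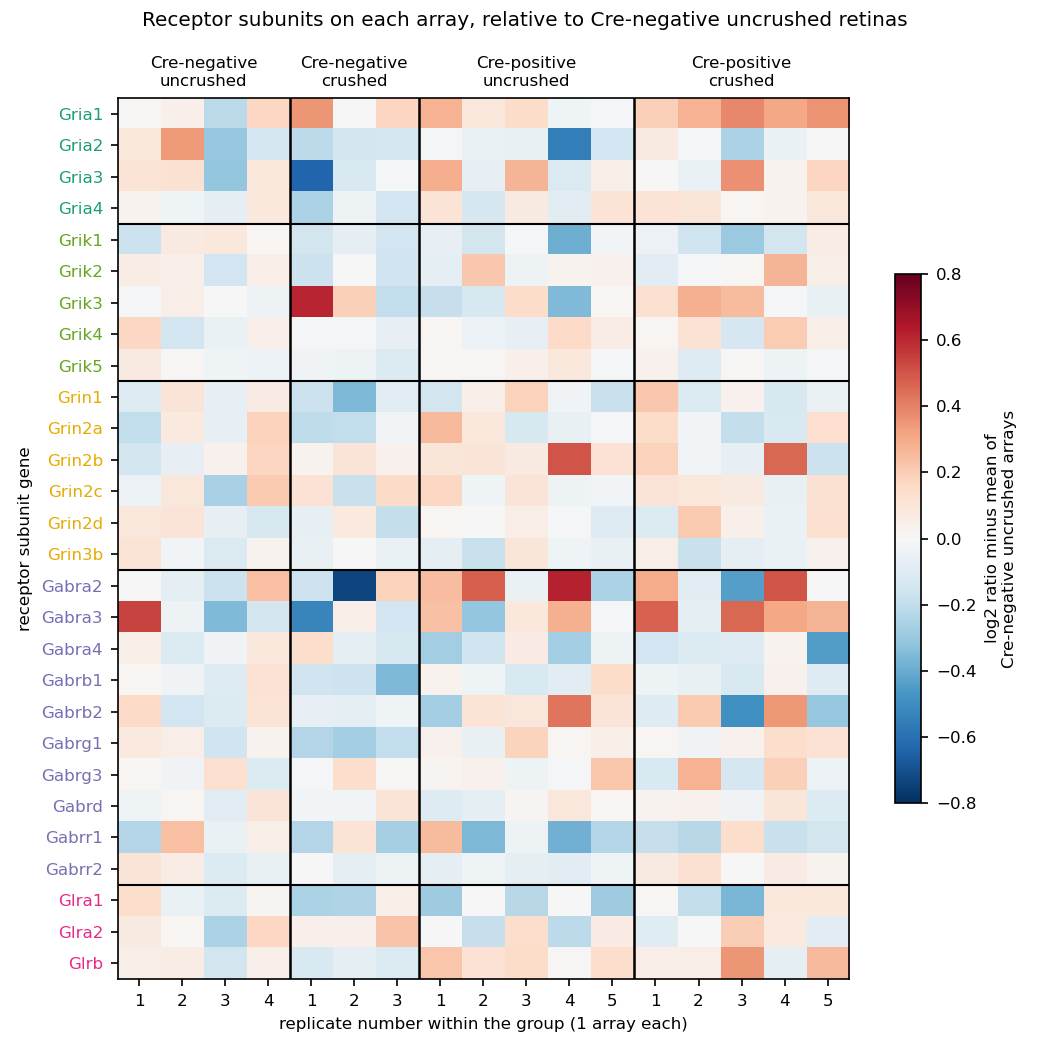
Log2 ratio of each of the 28 tested receptor genes (rows, grouped by class) on each of the 17 arrays (columns, grouped by genotype and crush) minus the gene's mean in Cre-negative uncrushed retinas, with red for higher and blue for lower. Gabrg1 and Gabrb1 are blue on all 3 Cre-negative crushed arrays, and so are genes of every other class, among them Gria2, Grik1, Grin1 and Glrb. Gabra2, with a pooled SD of 0.35, varies as much within the groups as between them.

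Other synaptic genes were read from 4 companion lists. Of 10 further ionotropic receptor genes 8 were tested and none was called in any of the 5 comparisons. Their median was −0.10 for the crush response without Cre and 0.04 with Cre. All 10 metabotropic glutamate and GABA-B receptor genes were tested and none was called. Their median change after crush was −0.12 without Cre and −0.02 with Cre.

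Of 38 auxiliary subunit and scaffold genes 37 were tested, and 3 fell after crush without Cre, Dlgap3, Cnih2 and Cacng5, where 0.816% of all features were called lower. The list's median was −0.06, with 30 of 37 estimates below 0. Dlgap3, a postsynaptic scaffold protein also called SAPAP3, was 4.64, 4.48, 4.40 and 4.44 in Cre-negative uncrushed and 3.95, 4.01 and 4.05 in crushed retinas, a fall with a log2 change of −0.49 (SE 0.08, adjusted p = 0.0011). In Cre-positive retinas it was 4.43, 4.30, 4.54, 4.44 and 4.47 uncrushed and 4.37, 4.35, 4.66, 4.49 and 4.45 crushed (0.03, SE 0.06, adjusted p = 0.92). The difference between both responses was called, at 0.52 (SE 0.10, adjusted p = 0.021), in a direction called for 0.134% of all features, and so was the Cre difference among crushed retinas, at 0.46 (SE 0.07, adjusted p = 0.0019). The call of the difference was lost without Cre-negative uncrushed replicate 1 (adjusted p = 0.053) and without Cre-negative crushed replicate 1 or 2 (0.096 and 0.064).

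Cnih2, a cornichon protein that binds AMPA receptors, was 1.34, 1.40, 1.25 and 1.31 in Cre-negative uncrushed and 1.04, 1.10 and 1.04 in crushed retinas (−0.27, SE 0.05, adjusted p = 0.0096). The adjusted p was 0.055 and 0.057 without Cre-negative crushed replicates 1 and 3. The ganglion cell markers were low on the same 3 crushed arrays as Dlgap3 and Cnih2, and their part in these changes was not tested. Cacng5, which encodes a transmembrane AMPA receptor regulatory protein, had a change of −0.38 with an adjusted p just under the threshold (SE 0.10, adjusted p = 0.050), and it passed in 6 of the 17 fits that left out 1 array. Among 18 tested genes of transmitter synthesis and transport 1 was called, Glul, the glutamine synthetase of Müller glia, lower after crush with Cre (−0.50, SE 0.11, adjusted p = 0.048), where 0.0868% of all features were called lower. It passed in 4 of the 17 fits that left out 1 array, and its uncrushed and crushed arrays overlapped. No gene of this list was called in the other 4 comparisons.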

How the data were processed

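Each array carried Cy5-labelled retina RNA and a Cy3-labelled universal mouse reference, per the labels. Spot and local background medians, as intensity values without normalization, were taken from the deposited scanner output (Agilent Feature Extraction 10.7.3.1, per the file headers). The same files hold processed signals and a deposited log10 ratio, used as a check. The authors' value table, read as log2 ratios of Cy5 to Cy3 (r of 0.999 or more with the ratios computed here), was an alternative; the submitters' processing notes name limma.

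Intensities were corrected by normexp (offset 50) and loess in limma 3.58.1 under R 4.3.3; the offset shrinks the ratios of dim spots. Spots of a probe were averaged, and each gene was represented by its brightest probe. Features with Cy5 well above background on at least 3 of 17 arrays were tested (25359 of 32992, 16778 with a symbol), with 4 group means and 5 contrasts, and Benjamini-Hochberg adjustment over all of them; called means adjusted p under 0.05. The scripts were tested on simulated data. The number of arrays limits the precision. Slides (5) were tried as a block.

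The receptor genes and companion lists were chosen with earlier results of these data known. Every listed receptor gene was to be named, and of the companion genes at most 4 called per list and comparison. Marker lists of rods, cones, bipolar, amacrine, horizontal, Müller, astrocyte and oligodendrocyte, vascular and pigment epithelial cells were checked beside those named above: in the crush response without Cre 0 of 8, 0 of 6, 0 of 10, 1 of 10 (Calb2, lower), 0 of 4, 0 of 8, 1 of 6 (Gfap, higher), 0 of 6 and 0 of 6 tested markers were called.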

Additional observations from a re-analysis of the deposited data

Results flagged for a closer look

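Single arrays stood apart from the rest of their group for 8 of the 84 combinations of receptor gene and group of 4 or 5 arrays, where chance gives about 1 in 20. Cre-negative uncrushed replicate 3 was lowest for Gria3 at 2.45 (others 2.84 to 2.88), for Grik2 at −0.19 (others 0.00 to 0.02) and for Glrb at 2.42 (others 2.61 to 2.64). Cre-positive uncrushed replicate 4, the array with the raised cornea, iris and ciliary body genes, was lowest for Gria2 at 3.30 (others 3.70 to 3.84) and highest for Grin2b at 0.70 (others 0.27 to 0.31). Gabrg3 stood high at 0.23 on Cre-positive uncrushed replicate 5, Gabrr1 at 4.29 on Cre-positive crushed replicate 3, and Grin2c stood low at 2.66 on Cre-positive crushed replicate 4.

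The crush response differed between genotypes, by the test of the difference itself, for Dlgap3, at 0.52 (SE 0.10, adjusted p = 0.021, limma), and for the ganglion cell gene Pou4f2, at 1.40 (SE 0.19, adjusted p = 0.00066). Of the 15 tested ganglion cell markers, Pou4f2 included, 5 were called higher for this difference, as were 0.134% of all features. No receptor gene met that criterion.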

How the results depend on the processing

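The count of receptor genes called was 0 under every alternative run for the crush response with Cre, for the difference of the responses and for Cre without crush, while the count over all features ran from 10 to 234, 0 to 122 and 1 to 3 (195, 106 and 3 in the reported fit). For the crush response without Cre the count was 1 rather than 0 with no background subtraction, with Cy5 alone, with the mean of a gene's probes and with the array of disagreeing labels as crushed, and ran from 0 to 1 with single arrays left out (1 without Cre-negative uncrushed replicate 3); each time the gene was Gabrg1, and all features gave 73 to 767 calls (550 reported). For Cre among crushed retinas the count fell from 1 to 0 with the processed signals, slide as a fixed term, the compared groups alone, the array of disagreeing labels as uncrushed and the authors' value table, and ran from 0 to 1 with single arrays left out (all features 116 to 435, 293 reported). The Gabrg1 value stayed at 0.22 to 0.39, with adjusted p from 0.0059 to 0.27, and passed in 20 of 30 alternatives. Causes were not tested. The median of the receptor genes in the crush response without Cre ran from −0.10 to −0.03, with Cre from −0.04 to 0.04, for the difference of the responses from 0.04 to 0.13, for Cre without crush from −0.03 to 0.06, and among crushed retinas from 0.05 to 0.11. Dlgap3 passed in 28 of 30 alternatives for the crush response without Cre and in 21 of 29 for the difference of the responses, Cnih2 in 25, Cacng5 in 14 and Glul in 12 of 30. Aquantile scaling leaves ratios unchanged by construction, and the compared groups alone give no value for the difference. No paired analysis was possible because the labels give no replicate numbers or shared animals. For genes whose signal is near background in both dyes, such as Grin2d, the ratios are compressed. Their changes can therefore be larger than the values shown.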

Other observations

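The Cre-negative array of disagreeing crush labels, which entered no comparison, had log2 ratios of 2.68 for Gabrg1, 2.12 for Gabrb1, 2.13 for Gabra2, 2.20 for Gabra4, 4.88 for Gabra3, 2.38 for Gria3, 4.97 for Gria4, 2.50 for Glrb, 1.28 for Grin1 and 4.05 for Dlgap3. Its Pou4f2 value was 2.33, beside 4.06 to 4.97 on the Cre-negative uncrushed arrays and 2.62 to 2.72 on the Cre-negative crushed arrays. Its median deviations from the Cre-negative uncrushed mean were 1.02 for the pigment epithelium list and 0.98 for the lens list.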
